A study of Mus musculus with 4 samples.

Results

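The genes described here are the dual-specificity phosphatases that act on mitogen-activated protein kinases (MAPKs), chosen by name as *Dusp1*, *Dusp2*, *Dusp3*, *Dusp4*, *Dusp5*, *Dusp6*, *Dusp7*, *Dusp8*, *Dusp10* and *Dusp16*. All 10 were found among the 12661 genes of the deposited table. RNA came from the outer tissue around the femoral artery, labelled perivascular adipose tissue (PVAT), of wild-type C57BL/6 mice. All mice were ovariectomized females, 11 weeks old according to the sample labels, and all 4 libraries represent 48 h after surgery. In the injury group (2 libraries) a straight spring wire of 0.38 mm was passed into the artery, and the other 2 libraries are labelled sham. Whether the libraries of a group came from separate mice or from pooled tissue is not stated in the labels, so p-values measure only the spread between these libraries.

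MAPK phosphatases remove phosphate from both the threonine and the tyrosine of the activation loop of ERK, JNK and p38 kinases, and so switch these kinases off. Several of them are transcribed in response to the very kinases they inactivate, which makes their transcripts part of a negative feedback loop. In macrophages *Dusp1* is known to restrain the production of inflammatory cytokines, and in brown and beige adipocytes p38 carries the adrenergic signal to the thermogenic genes. The family is commonly divided into inducible nuclear enzymes (*Dusp1*, *Dusp2*, *Dusp4*, *Dusp5*), cytoplasmic enzymes with a preference for ERK (*Dusp6*, *Dusp7*), enzymes with a preference for JNK and p38 (*Dusp8*, *Dusp10*, *Dusp16*), and *Dusp3*, a small phosphatase without the MAPK-binding domain of the others.

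Promoter sequence from RefSeq was matched for 9 of the 10 members, all but *Dusp4*, as windows of 250 bases before and 50 bases after the transcription start. The windows come from a GRCm38.p6 table and were placed on NCBIM37 (mm9), the build to which the reads were aligned, by an exact match that occurred once on the chromosome. The part of the window before the start is shown for the member with the lowest p-value (*Dusp7*) and for the members that hold a cyclic AMP response element (CRE) or a CArG box, the sites of the CREB and serum response factors, with the matched letters in capitals. Bases that GENCODE annotates as exon were left out, and all sequences run 5′ to 3′ on the strand of the gene.
Dusp1 (chr17:26645465-26645667, minus strand): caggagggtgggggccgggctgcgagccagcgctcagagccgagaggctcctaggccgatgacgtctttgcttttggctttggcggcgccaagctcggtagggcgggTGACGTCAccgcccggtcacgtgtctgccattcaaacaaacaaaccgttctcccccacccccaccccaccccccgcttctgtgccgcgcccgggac
Dusp5 (chr19:53603385-53603598, plus strand): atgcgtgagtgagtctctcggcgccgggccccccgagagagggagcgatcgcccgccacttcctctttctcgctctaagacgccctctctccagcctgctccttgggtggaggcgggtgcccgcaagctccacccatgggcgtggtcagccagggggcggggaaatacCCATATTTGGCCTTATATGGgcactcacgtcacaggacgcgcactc
Dusp7 (chr9:106270713-106270962, plus strand): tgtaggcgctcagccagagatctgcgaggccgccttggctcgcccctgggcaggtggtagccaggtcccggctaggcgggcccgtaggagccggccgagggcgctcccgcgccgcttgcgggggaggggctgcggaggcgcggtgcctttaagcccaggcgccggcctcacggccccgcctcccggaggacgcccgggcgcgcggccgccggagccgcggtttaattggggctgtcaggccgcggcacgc
Dusp8 (chr7:149281190-149281439, minus strand): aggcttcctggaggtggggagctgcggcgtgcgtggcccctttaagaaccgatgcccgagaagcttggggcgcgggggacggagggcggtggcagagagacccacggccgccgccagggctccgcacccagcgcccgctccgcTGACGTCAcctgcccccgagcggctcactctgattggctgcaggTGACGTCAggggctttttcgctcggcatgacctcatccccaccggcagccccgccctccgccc

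The CRE was searched as TGACGTCA on both strands. It was present in *Dusp1* once, at -143 to -136 from the RefSeq start, and in *Dusp8* at -107 to -100 and at -63 to -56. Of all 32851 promoter windows in the table, 1.79% held it. *Dusp5* held 2 CArG boxes side by side, at -82 to -73 and at -72 to -63, and 1.63% of all windows held at least 1 CArG box. No member window held an AP-1 site, searched as TGANTCA (7.81% of all windows), or a TATA box, searched as TATAAA (13.6%). The RefSeq start lay 559 bases downstream of the GENCODE gene start for *Dusp8* and 47 and 36 bases downstream for *Dusp1* and *Dusp5*, whereas for *Dusp7* both starts were the same base. Of the windows not shown, it lay 21079 bases downstream for *Dusp10* and 2222 for *Dusp3*. Those windows are therefore not at the gene starts given below. A letter match is a description of these windows and does not show that a factor binds there.

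The deposited values are signed, log-like and centred separately for each gene, between -2.27 and 6.45 in the whole table, and neither the base of the scale nor the reference on which a gene was centred is stated. A value of 0 is not the mean of these 4 libraries. Values and differences are therefore given in deposited units, levels of different genes cannot be compared, and sequencing depth is unknown. For the same reason the presence of a cell type cannot be read from them. The marker genes of adipocytes and of brown adipocytes that were looked up were all in the table, as were those of macrophages, endothelium and smooth muscle, whereas 0 of 4 epithelial and 1 of 7 lymphocyte markers were. Over all genes, limma with Benjamini-Hochberg adjustment called 476 genes (3.76%) higher and 465 (3.67%) lower after injury at an adjusted p-value under 0.05. The median difference over all genes was 0.0085 deposited units. With a library left out, which leaves 1 library in its group, 0 genes were called without sham replicate 1, 1 without sham replicate 2, 284 without injury replicate 1 and 1790 without injury replicate 2. In bulk tissue a change in the number of cells of a type cannot be told apart from a change in RNA per cell.

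None of the 10 phosphatase transcripts passed this threshold in either direction. Their adjusted p-values from limma ran from 0.132 for *Dusp7* to 0.947 for *Dusp4*. Before adjustment 1 member, *Dusp7*, had a p-value under 0.05, as did 29.5% of all genes. In 7 members the mean was higher after injury, and the median difference of the members was 0.22, where that of all genes was 0.0085. With a library left out, 5 of the 10 members changed direction (*Dusp1*, *Dusp2*, *Dusp4*, *Dusp6* and *Dusp16*). Both injury libraries lay above both sham libraries in 3 members (*Dusp5*, *Dusp7*, *Dusp10*), where 31.6% of all genes did so, and below them in 1 member (*Dusp8*), where 30.3% of all genes did so. The share of members set apart upward was close to that of the whole table, and the share set apart downward was below it. For any one member, exact permutation of 2 and 2 libraries can go no lower than p = 0.333.

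**Figure D1:**
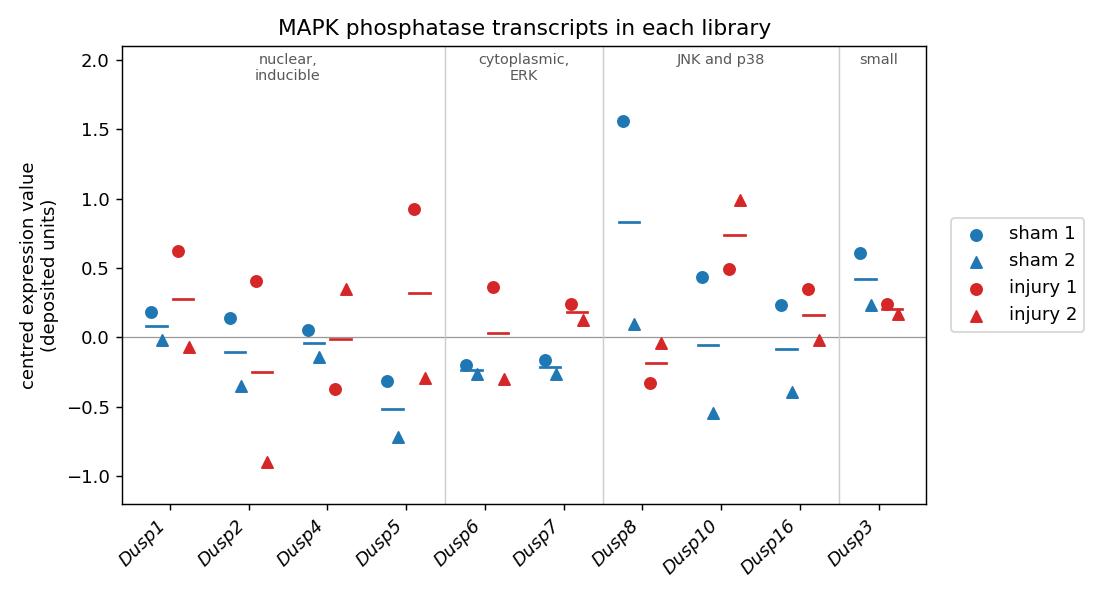
Centred expression value (vertical axis, deposited units) of each phosphatase transcript in the sham (blue) and injury (red) libraries, with circles for replicate 1, triangles for replicate 2 and short lines for group means. Injury replicate 1 is well above the other libraries for *Dusp5* (0.92) and sham replicate 1 for *Dusp8* (1.56), and each gene is centred separately, so heights compare libraries and not genes.

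Among the nuclear inducible enzymes, the injury libraries stood far apart from each other. *Dusp1*, an immediate early gene whose product inactivates p38, JNK and ERK, lies on chromosome 17 of mm9 from 26642535 to 26645464 (GENCODE). Its values were 0.18 and -0.017 in the sham libraries and 0.62 and -0.066 in the injury libraries. Injury replicate 1 was thus the highest and injury replicate 2 the lowest library, and the groups overlapped. The difference was 0.19 (standard error 0.25, 95% interval -0.44 to 0.83, adjusted p = 0.651 from limma). Dropping injury replicate 1 turned it to -0.15, and dropping injury replicate 2 raised it to 0.54.

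*Dusp2*, an ERK and p38 phosphatase best known from activated leukocytes, is on chromosome 2 from 127161895 to 127164112. It was at 0.14 and -0.35 after sham operation and at 0.40 and -0.90 after injury. The injury libraries were the highest and the lowest of the 4, on either side of both sham libraries. Its difference of -0.14 had an interval of -1.24 to 0.96 (adjusted p = 0.859 from limma), and became 0.51 when injury replicate 2 was dropped and -0.79 when injury replicate 1 was. Without sham replicate 1 it was 0.10. In all 8 macrophage and all 6 neutrophil markers measured, each injury library exceeded each sham library, and injury replicate 1 exceeded injury replicate 2 by a median of 0.706 and 1.39. Their part in the gap of *Dusp2* was not tested.

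*Dusp4*, a nuclear phosphatase of ERK and JNK on chromosome 8 from 35870351 to 35882948, measured 0.052 and -0.14 after sham operation and -0.37 and 0.35 after injury. Here injury replicate 2 was the highest library and injury replicate 1 the lowest, the reverse of *Dusp1* and *Dusp2*. Between the groups it differed by 0.032 (standard error 0.26; limma, adjusted p = 0.947), by 0.395 without injury replicate 1 and by -0.33 without injury replicate 2.

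*Dusp5*, a nuclear phosphatase that acts on ERK and is itself induced by ERK signalling, lies on chromosome 19 from 53603599 to 53616921. The sham libraries were at -0.31 and -0.72 and the injury libraries at 0.92 and -0.29. Injury replicate 1 stood alone, and injury replicate 2 exceeded the higher sham library by only a narrow margin. The difference of 0.83 (standard error 0.41, 95% interval -0.19 to 1.86) was the highest of the family and larger than that of 94.4% of all genes, but was not called (limma, adjusted p = 0.241). Without injury replicate 2 the difference was 1.44 and *Dusp5* was called (adjusted p = 0.0187 from limma), with the single injury library assumed to vary as the sham libraries do. Without injury replicate 1 it was 0.23. After quantile normalization injury replicate 2 (-0.32) fell below sham replicate 1 (-0.29), so the separation of the groups depended on the scaling of the columns.

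The cytoplasmic ERK phosphatases differed in how well their libraries agreed. *Dusp6*, on chromosome 10 from 98725865 to 98730122, encodes the feedback phosphatase of ERK in the cytoplasm. Its sham libraries were close together at -0.20 and -0.27, whereas the injury libraries were at 0.36 and -0.30. One injury library was therefore above both sham libraries and the other below them. Injury minus sham came to 0.26 (standard error 0.24; limma, adjusted p = 0.512), to -0.067 without injury replicate 1 and to 0.60 without injury replicate 2.

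*Dusp7*, a close relative of *Dusp6* on chromosome 9 from 106270963 to 106278055, was at -0.17 and -0.26 in the sham libraries and at 0.24 and 0.13 in the injury libraries. The groups did not overlap, and the libraries of each group lay close together, at -0.21 ± 0.069 (SD, n = 2) after sham operation and 0.18 ± 0.082 (SD, n = 2) after injury. The difference of 0.40 (standard error 0.14, unadjusted p = 0.0310, adjusted p = 0.132 from limma) was the most precise of the family. Its 95% interval, 0.052 to 0.74, was the only one of the 10 that did not include 0 before adjustment. Leaving out any one library kept the difference between 0.34 and 0.46.

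**Figure D2:**
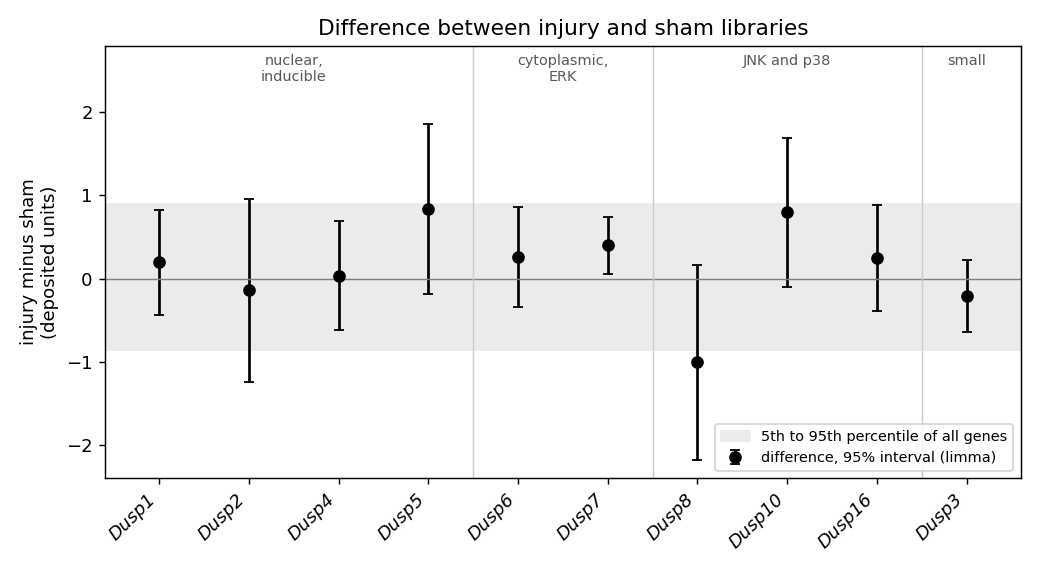
Difference between the group means (injury minus sham, deposited units) of each phosphatase transcript with its 95% interval from limma, before adjustment, and the 5th to 95th percentile of all genes as a grey band (-0.86 to 0.90). Only the interval of *Dusp7* leaves out 0, and only *Dusp8* (-1.01) lies outside the band.

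The phosphatases with a preference for JNK and p38 varied most between the sham libraries. *Dusp8*, on chromosome 7 from 149265395 to 149281748, was at 1.56 and 0.097 after sham operation and at -0.33 and -0.037 after injury. Sham replicate 1 stood far above the other 3 libraries, and both injury libraries lay below both sham libraries. The difference was -1.01 (standard error 0.47, 95% interval -2.19 to 0.16, adjusted p = 0.220 from limma), a value lower than that of all but 3.27% of genes. Without sham replicate 1 it was -0.28, so most of its size came from that library, and without sham replicate 2 it was -1.74. Of the 5 skeletal muscle markers measured, 4 were also highest in that library, and the exception was *Pvalb*, at 0.102 there and at 0.717 and 0.907 in the injury libraries. Their median was 0.79 in sham replicate 1, -0.075 in sham replicate 2, -0.21 in injury replicate 1 and -0.40 in injury replicate 2. All 7 smooth muscle markers were highest in sham replicate 1 too, with medians of 1.72, 1.03, -1.39 and -0.198 in the same order. The part of either tissue in the result was not tested. GENCODE lists a second gene of the same name within *Dusp8* on the same strand, and the annotation used for counting is not stated.

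*Dusp10*, a phosphatase of JNK and p38 on chromosome 1 from 185837181 to 185899515, was at 0.43 and -0.54 in the sham group and at 0.49 and 0.99 in the injury group. Both injury libraries were above both sham libraries, although injury replicate 1 and sham replicate 1 were nearly level. The difference was 0.80 (standard error 0.36, 95% interval -0.097 to 1.69, adjusted p = 0.208 from limma). Dropping sham replicate 1 gave 1.3, dropping sham replicate 2 gave 0.31, dropping injury replicate 1 gave 1.05 and dropping injury replicate 2 gave 0.55. Another gene, *1700056E22Rik*, lies within *Dusp10* on the opposite strand. The libraries were strand-specific, but whether the counting used strand is not stated.

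*Dusp16*, a JNK phosphatase on chromosome 6 from 134665488 to 134742643, was at 0.23 and -0.40 after sham operation and at 0.35 and -0.019 after injury. The groups overlapped, and the difference of 0.25 (standard error 0.26; limma, adjusted p = 0.568) became -0.070 when sham replicate 2 was dropped and 0.56 when sham replicate 1 was.

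*Dusp3*, which acts on ERK and JNK, is on chromosome 11 from 101832457 to 101848327. Sham values were 0.60 and 0.23, and injury values were 0.24 and 0.17. Sham replicate 1 was the highest library and the other 3 were alike. The means differed by -0.21 (standard error 0.17; limma, adjusted p = 0.460), by -0.028 with sham replicate 1 dropped and by -0.40 with sham replicate 2 dropped. After quantile normalization, and with the columns scaled to one spread, both injury libraries lay below both sham libraries, which was not so with the values as deposited.

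The spread between libraries of one group was wide in this family. In 5 members the injury libraries lay farther apart than in 90% of all genes, and these were all 4 nuclear inducible enzymes and *Dusp6*. The gap was 1.30 for *Dusp2* (wider than in 99.2% of genes), 1.21 for *Dusp5* (98.9%), 0.69 for *Dusp1* (93.0%) and 0.66 for *Dusp6* (92.4%), each with injury replicate 1 higher, and -0.73 for *Dusp4* (93.9%). Over the members the median size of this gap was 0.582, and over all genes it was 0.188. Between the sham libraries the gap exceeded that of 90% of genes in 4 members, *Dusp8* (1.46), *Dusp10* (0.98), *Dusp16* (0.63) and *Dusp2* (0.49). The standard error of the difference was above the median of all genes (0.159) in 9 of the 10 members, with *Dusp7* as the exception. In the same 9 members the wider of the replicate gaps was larger than the difference between the groups, which was so in 51% of all genes.

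**Figure D3:**
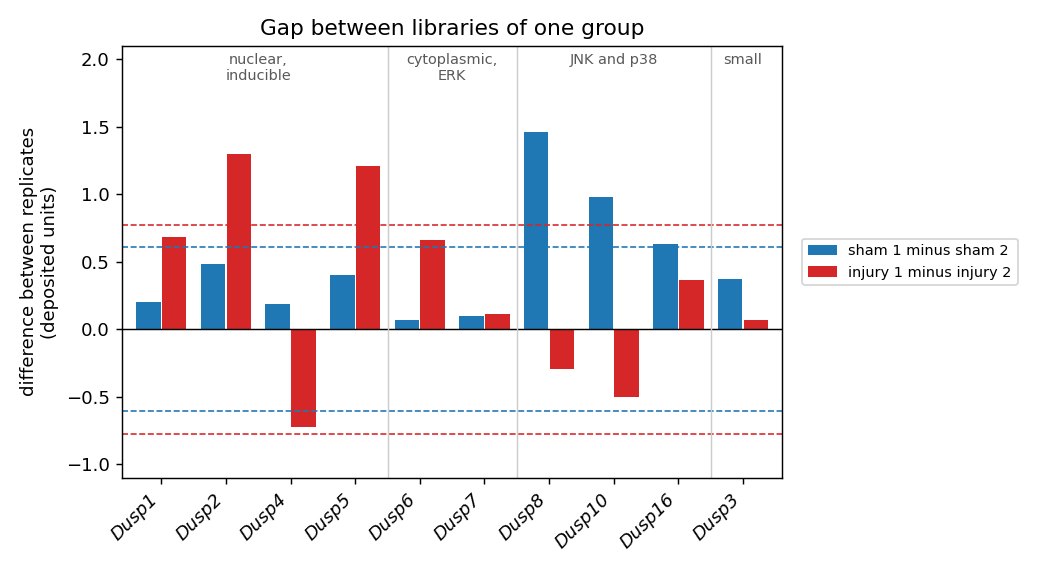
Gap between the libraries of one group, replicate 1 minus replicate 2 in deposited units, for sham (blue) and injury (red), with dashed lines at the size that 95% of all genes do not exceed (0.607 for sham, 0.773 for injury). The injury gap passes its line for *Dusp2* and *Dusp5* and the sham gap for *Dusp8*, *Dusp10* and *Dusp16*.

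Of the sham libraries, replicate 1 had the higher value in all 10 members, as in 51.6% of all genes. In the injury group 7 members were higher in replicate 1, all but *Dusp4*, *Dusp8* and *Dusp10*, as were 48.9% of all genes. Both counts were the same after quantile normalization and with the columns scaled to one spread. The replicate number is only a name, and no shared animal or batch is given for it. Some marker lists moved with these gaps and others did not. Sham replicate 1 was above sham replicate 2 in all 7 smooth muscle markers (median gap 0.715), in all 5 skeletal muscle markers measured (0.801) and in all 6 fibroblast markers (0.305). It was above in only 2 of 8 macrophage markers (median gap -0.139) and 1 of 6 neutrophil markers (-0.396). The same held for 1 of 9 pan-adipocyte markers (-0.109) and 1 of 7 brown adipocyte markers (-0.322). Injury replicate 1 was above injury replicate 2 in all 8 macrophage markers (median gap 0.706) and in all 6 neutrophil markers measured (1.39), and below it in all 7 smooth muscle markers (-1.14). The part of these cell types in the gaps of the phosphatases was not tested.

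The rest of the MAPK pathway was examined through 9 lists, in which 92 of 112 genes were measured. Of these 92, limma called 2 higher and 3 lower, or 5.43%, and 7.43% of all genes were called. The median difference of the 92 genes was 0.0437. No gene was called among the 10 MAP kinases, the 7 MAP kinase kinases and the 20 MAP kinase kinase kinases measured, and 1, 1 and 5 of them had an unadjusted p-value under 0.05, a share below the 29.5% of all genes in each list. The MAP kinase list, which also holds kinases other than ERK, JNK and p38, had a median difference of -0.0015. The p38 kinase genes *Mapk12* and *Mapk11* had the largest differences among them, -0.60 and -0.53 (adjusted p = 0.0747 and 0.183 from limma). Without injury replicate 2 *Mapk12* was called (-0.729, adjusted p = 0.0471), and the difference of *Mapk11* ran from -0.78 to -0.274 with each library left out. For *Map2k6*, which activates p38, the difference was 0.34, and for *Map2k3*, which also activates it, -0.28. With each library left out they ran from 0.311 to 0.364 and from -0.412 to -0.153. The largest differences of the upstream kinases were those of *Map3k9* (0.65) and *Map3k6* (-0.63). Both depended on the injury libraries: they were 0.325 and -0.157 without injury replicate 1, and 0.974 and -1.1 without injury replicate 2, where both were called (adjusted p = 0.0261 and 0.035).

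Among other enzymes and inhibitors that restrain the pathway, 1 transcript rose. *Ptpn7*, a tyrosine phosphatase of ERK and p38 found in leukocytes, was at -1.46 and -1.04 in the sham libraries and at 0.60 and 0.23 in the injury libraries. Both injury libraries were far above both sham libraries, with a rise of 1.66 (standard error 0.22; limma, adjusted p = 0.0291). It was the only gene called among the 6 other MAPK phosphatases measured, and *Ppm1a* was next in size with -0.53 (adjusted p = 0.0761). All 8 macrophage markers were also higher in both injury libraries (31.6% of all genes were), 4 of them called higher (3.76% of all genes). Their part in the *Ptpn7* result was not tested. None of the 10 other dual-specificity phosphatases measured was called by limma, with an unadjusted p-value under 0.05 in 2 of them. The largest differences were 0.48 for *Dusp28* and 0.46 for *Ptpmt1*, a phosphatase of mitochondria. The Sprouty, Spred and related inhibitors of the route to ERK had 0 of 6 genes called and 2 with an unadjusted p-value under 0.05. *Errfi1* (-0.59) and *Il17rd* (-0.58) differed most among them, with ranges of -0.848 to -0.328 and -0.814 to -0.345 when each library was left out, and 3 of the 6 had a positive difference. *Spred1*, named here after its values were seen, had the lowest p-value of the list, with a difference of 0.557 (limma, adjusted p = 0.0923).

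**Figure D4:**
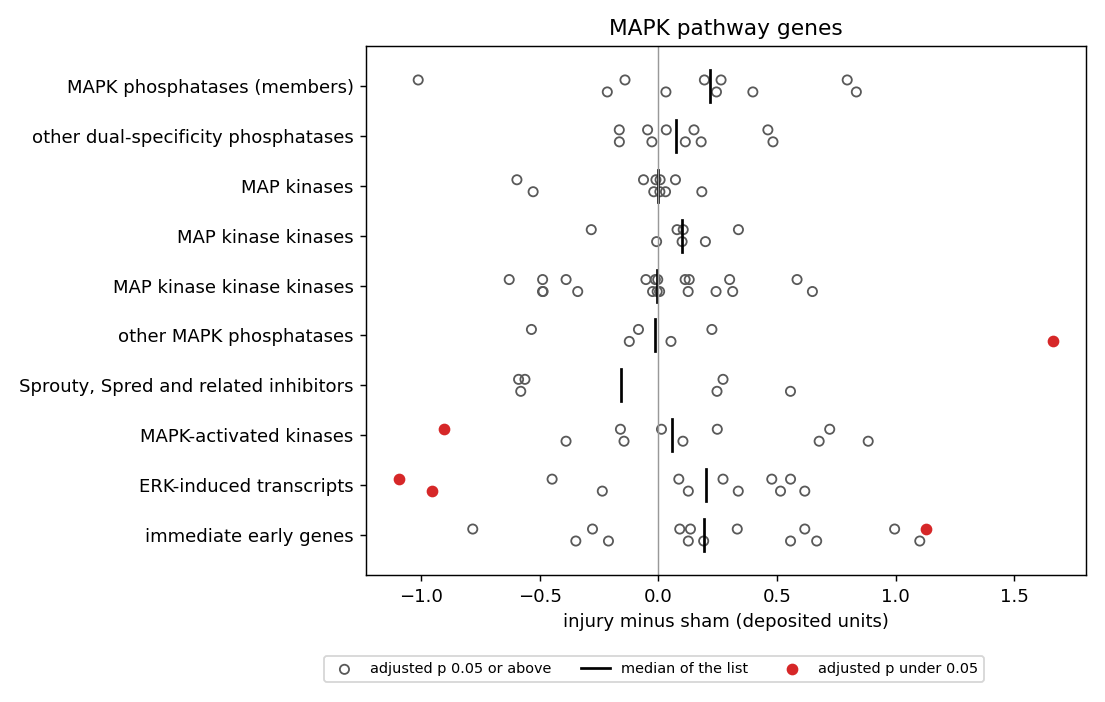
Difference between injury and sham (horizontal axis, deposited units) of each measured gene of the phosphatase family and of the 9 pathway lists, filled in red where the adjusted p-value from limma was under 0.05, with the median of each list as a line. No member of the family is filled, and the filled genes are *Ptpn7* and *Egr2* on the right and *Rps6ka5*, *Epha2* and *Epha4* on the left.

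Downstream of the kinases, *Rps6ka5*, a nuclear kinase activated by ERK and p38, fell from 0.73 and 0.47 in the sham libraries to -0.30 and -0.30 in the injury libraries. The difference was -0.90 (adjusted p = 0.0345 from limma). It was the only gene called of 10 MAPK-activated kinases. Of the 10, 4 had an unadjusted p-value under 0.05 from limma, where 29.5% of all genes did. *Rps6ka1*, with 0.88, was next in size (adjusted p = 0.116), and its difference ran from 0.58 to 1.19 with each library left out. *Mapkapk2*, named here after its values were seen, had a difference of 0.678 (adjusted p = 0.0724). Of the 12 transcripts measured from a list of genes induced by ERK, 8 had a positive difference and the median was 0.2, but limma called 0 higher and 2 lower, the ephrin receptor genes *Epha2* (-1.09, adjusted p = 0.0285) and *Epha4* (-0.95, adjusted p = 0.0317). Of the endothelial markers 3 of 7 were called lower, with a median difference of -0.727 over the list, of the smooth muscle markers 4 of 7, with a median of -2.12, and of the fibroblast markers 3 of 6, with a median of -0.748. Of all genes, 3.67% were called lower. Their part in the falls of *Epha2*, *Epha4* and *Rps6ka5* was not tested. Of 15 immediate early genes 1 was called, *Egr2*, which rose by 1.13 (adjusted p = 0.0291), while *Atf3* with 1.10 was not (adjusted p = 0.11). With each library left out *Atf3* ran from 0.696 to 1.51. *Fos*, named here after its values were seen, had a difference of 0.996 (adjusted p = 0.054). An unadjusted p-value under 0.05 from limma was found in 6 of the 15 (29.5% of all genes). Both injury libraries lay above both sham libraries in 5 of the 15 (31.6% of all genes) and below them in 1 (30.3%). The adjusted p-values are from limma over all 12661 genes. With any one library left out the differences ran from -1.12 to -1.06 for *Epha2*, from -1.05 to -0.853 for *Epha4*, from -1.03 to -0.773 for *Rps6ka5*, from 1.01 to 1.24 for *Egr2* and from 1.45 to 1.87 for *Ptpn7*. Fewer of these 5 calls passed the threshold with 3 libraries: none of them was called without sham replicate 1 (adjusted p = 0.176 to 0.211) or without sham replicate 2 (0.113 to 0.143), and of the 5 only *Epha2* was called without injury replicate 1 (0.0483). All 5 were called without injury replicate 2. *Fosl1*, *Egr1* and *Ier3* are in both of the last lists, and *Spry2* is both a Sprouty and an ERK-induced gene.

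Gaps between the injury libraries above that of 90% of all genes were present in 8 of the 12 transcripts induced by ERK, and not in *Epha2*, *Epha4*, *Etv1* and *Spry2*. In all 12, injury replicate 1 exceeded injury replicate 2, with a median gap of 0.629, and 14 of the 15 immediate early genes were too, with a median gap of 0.52. For *Etv5*, an ETS factor gene, the sham libraries were at -0.41 and -0.56 and the injury libraries at 0.68 and -0.69. *Ier3* was at -0.21 and -0.42 after sham operation and at 0.88 and -0.40 after injury. In both genes injury replicate 1 stood alone above the other 3 libraries, as in *Dusp5*, and neither was called (adjusted p = 0.515 and 0.420 from limma). *Etv5* and *Ier3* were chosen as examples after their values were seen. Between the injury libraries the ERK-induced list ran in the same direction as the macrophage and neutrophil markers given above. Between the sham libraries, replicate 1 was higher in 7 of the 12 transcripts, in 2 of 8 macrophage markers and in 1 of 6 neutrophil markers. Against sham, 8 of the 12 had a positive difference, and all 8 macrophage and all 6 neutrophil markers did. The part of these cells was not tested.

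**Figure D5:**
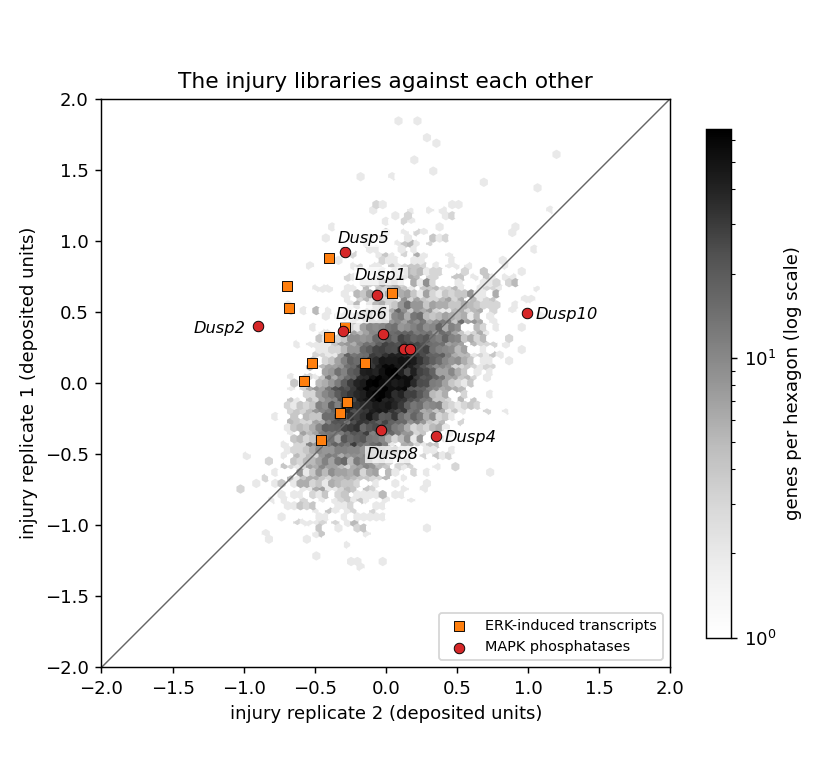
Values of injury replicate 1 (vertical axis) against injury replicate 2 (horizontal axis), in deposited units, for all genes (grey hexagons, darker for more genes on a log scale), the phosphatases (red circles) and the ERK-induced transcripts (orange squares); 13 genes lie outside the axes. *Dusp5*, *Dusp1*, *Dusp2*, *Dusp6* and all 12 ERK-induced transcripts lie above the line of equal values, and *Dusp4*, *Dusp8* and *Dusp10* lie below it.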

How the data were processed

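Bulk RNA-seq of sham and injury PVAT (2 libraries each, 480 ng of total RNA, stranded mRNA kit) was analysed. Following the submitters' processing notes and the methods, reads were checked with FastQC 0.11.8, trimmed with cutadapt 1.18 and Trimmomatic 0.39, mapped by STAR 2.6.0a on mm9 and counted with featureCounts, and DESeq2 1.28.0 was used for differences. The values deposited by the authors are not counts but a centred, log-like score per gene and library. How it was made from counts, its base and the filter on genes are not given in the sources used here, so depth and detection limits are unknown.

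The 4 columns were fitted with limma 3.58.1 in R 4.3.3 (group as the only term, no trend, 3.48 prior degrees of freedom), with Benjamini-Hochberg adjustment over all 12661 genes and a threshold of 0.05. The fit was tested on simulated data. The members and lists were chosen with earlier results of these data known. Named genes were all members and, per pathway list, the genes called, filled up to 2 by the largest difference. No list was tested as a set. Alternatives were a replicate block, each library left out, a robust prior, columns brought to one spread, quantile normalization, identical rows (28) counted once and a threshold of 0.1. Tables and plots were made with pandas 2.3.3 and matplotlib 3.10.9.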

Additional observations from a re-analysis of the deposited data

How the results depend on the processing

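Over the 10 alternatives none of the members was called, except *Dusp5* without injury replicate 2, so the count of called members ran from 0 to 1 with each library left out. In the alternatives with all 4 libraries no member changed direction, and the lowest adjusted p-value of a member was 0.111. With each library left out, the difference ran from -0.149 to 0.537 for *Dusp1*, from -0.792 to 0.511 for *Dusp2*, from -0.331 to 0.395 for *Dusp4*, from -0.0674 to 0.596 for *Dusp6* and from -0.0699 to 0.56 for *Dusp16*, so these 5 had no stable direction. The count of members with both injury libraries below both sham libraries was 1, and 2 after quantile normalization and with columns scaled to one spread, where *Dusp3* was added. The count with both above was 3, and 2 under the same scalings, where *Dusp5* dropped out.

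The replicate number as a block left 684 genes called, 579 of them among the 941 called without it, and 15 genes of the pathway and marker lists (27 without it). With the block *Rps6ka5* and *Epha4* were not called (adjusted p = 0.0514 and 0.0503), *Rps6ka1* and *Atf3* were (adjusted p = 0.0472 and 0.0368), the pathway genes called were 6 and not 5, and no member's call changed. The numbers are not known to pair the libraries, and the correlation across genes of same-numbered deviations was -0.094. At an adjusted p-value under 0.1 the counts were 2317 for all genes, 51 for the lists and 14 for the pathway genes alone (5 at 0.05). With each library left out they ran from 0 to 1790 for all genes, from 0 to 53 for the lists and from 0 to 17 for the pathway genes, with 0 genes called without sham replicate 1 and 1790 without injury replicate 2. Filters on low values and count models could not be run on a centred score.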
